A study of Mus musculus with 6 samples.

Results

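The 10 genes described here, Mgp, Postn, Fn1, Sparc, Thbs1, Thbs2, Tnc, Spp1, Ccn1 and Ccn2, encode secreted matricellular and matrix glycoproteins. They were taken from a list of gene names, and all 10 were found among the 52636 genes of a table of single cells cultured from the mouse retinal pigment epithelium (RPE) and choroid, the pigmented layer and the vascular layer behind the retina. Male C57BL/6J mice aged 12 to 16 months were the source, with 3 Dram2 wt/wt samples against 3 Dram2 ko/ko samples. The labels give the tissue as choroid, and the cells were dissociated with papain and grown in RtEGM, a retinal epithelial growth medium, before they were captured, so every level below is that of cultured cells. The ko/ko mice carry a germline deletion of an exon of Dram2 (allele Dram2 tm1Jean) made with CRISPR/Cas9. Dram2 encodes a lysosomal membrane protein. The sources used here do not state whether 1 sample is 1 animal or a pool of animals, though the study's proliferation assay of such cultures used several eyes per well, so the p-values measure the spread between these samples.

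Matricellular proteins are secreted into the matrix around cells, where they bind integrins, growth factors and structural matrix proteins and alter how cells adhere, migrate and respond to signals, more than they carry mechanical load. Many are low in resting adult tissue and increase in development, wound repair and cell culture. In the back of the eye, SPARC, thrombospondins, tenascin-C, osteopontin and the CCN proteins are known from the RPE, the choroidal vessels and Bruch's membrane, and CCN1 and CCN2 are classical targets of the mechanosensitive cofactors YAP and TAZ.

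In total 25428 cells were held in the 6 samples, with 96808998 to 122746184 unique molecular identifiers (UMIs, which count RNA molecules) per sample. The deposited annotation named 8 cell types, and the fibroblast types were also divided into sub-clusters 1 to 9. Fibroblast held 12651 cells, Fibroblast proliferating 6465, Fibroblast 2 3019, RPE 1492, Fibroblast-like 1121, Pericyte 308, Endothelial 288 and Myeloid 84. Dram2 ko/ko replicate 1 had the fewest cells, 2140 at a median of 47373 UMIs, and Dram2 ko/ko replicate 2 the most, 6648 at 16453 UMIs. Per the labels, Dram2 ko/ko replicate 3 was the only sample of batch 2, so each value without it is the value within batch 1. Dram2 itself was counted at 33.4, 39.6 and 38.1 CPM (UMIs of the gene per 1000000 UMIs) in wt/wt and at 30.7, 28.3 and 30.1 CPM in ko/ko, but its counts come from the 3′ end of the RNA, outside the deleted exon, and do not check the genotype. The deposited cell names do not contain droplet barcodes, so barcodes shared between samples were not counted.

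The names of 3 types need a remark before the members are described. Cells named Pericyte had 407 CPM of Ngfr and 179 CPM of Sox10, both Schwann cell markers. Of the 6 pericyte markers, Kcnj8, Higd1b and Ndufa4l2 were at 0 in these cells and Rgs5 at 7.79 CPM, while Cspg4 was at 199 CPM, its highest mean among the 8 types, and Pdgfrb at 29.4 CPM. Higd1b was at or near 0 in the other types as well. Of the 308 cells, 271 (88.0%) had 3 or more UMIs of the Schwann markers Ngfr, Sox10 and S100b. The Pericyte cells also had the highest means of the collagen genes Col1a1 and Col1a2 among the 8 types. These were 1729 and 3682 CPM, against 673 and 645 CPM in Fibroblast cells, while the fibroblast marker Dcn was at 51.8 against 580 CPM. RPE cells held the RPE marker Krt18 at 710 CPM, but Rpe65, a visual cycle enzyme of mature RPE, was near 0. Of the 84 Myeloid cells, 58 held UMIs of the collagen genes Col1a1 or Col1a2, which myeloid cells are not expected to transcribe, and 26 held none.

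A level below is a gene's UMIs in all cells of a type in 1 sample, scaled to 1000000 UMIs of those cells (CPM), and is given as the mean ± SD over the samples with 10 or more cells of that type. Levels of cell types are descriptions without a test, since the types are clusters of these same cells. Counts of 3′ ends were not compared between genes. Gene positions are those of GRCm38 in the GENCODE M21 annotation, counted from 1. The map of mean levels shows where each gene was highest.

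**Figure D1:**
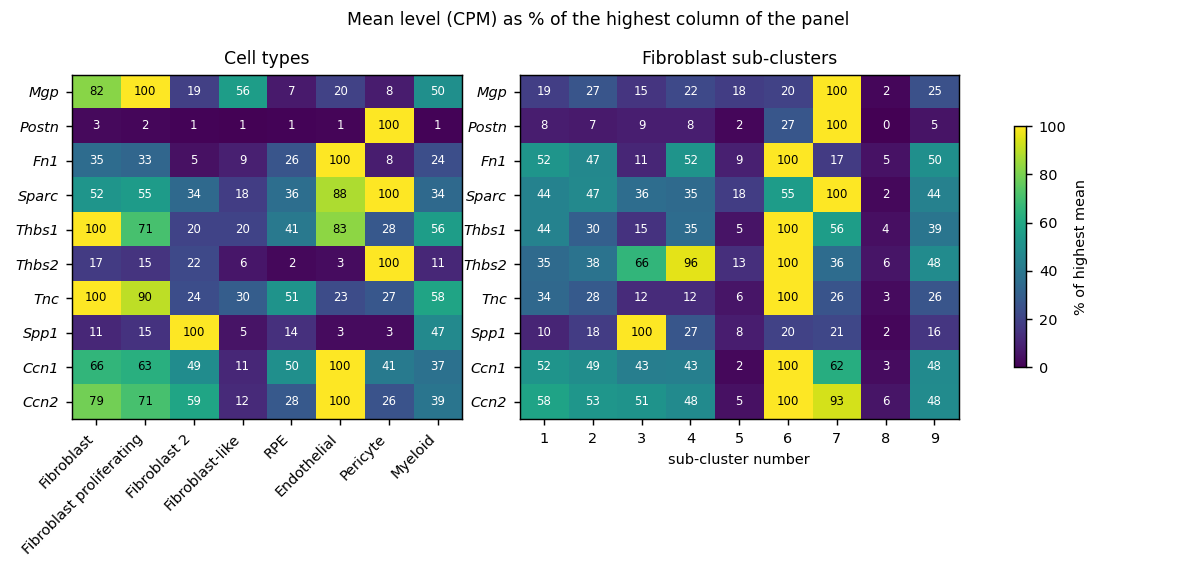
Mean level of the 10 genes in the 8 cell types (left) and 9 fibroblast sub-clusters (right), as a percentage of the highest column of that panel, with the percentage printed in each cell. Postn peaked in Pericyte cells, Spp1 in Fibroblast 2 cells and sub-cluster 3, and among the sub-clusters 6 or 7 held the highest mean of every gene other than Spp1.

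To show the sequence next to the genes whose levels ran in opposite directions in Fibroblast 2 cells, the 250 bases before the transcription start of Ccn1 and of Spp1 are printed, from RefSeq on GRCm38.p6. The Ccn1 window is chr3:145649986-145650235 on the minus strand and that of Spp1, the first of its listed starts, is chr5:104434861-104435110 on the plus strand. Capitals mark the letters of the TEAD motif GGAATG, the TATA motif TATAAA and the RUNX motif TGTGGT on either strand.
Ccn1: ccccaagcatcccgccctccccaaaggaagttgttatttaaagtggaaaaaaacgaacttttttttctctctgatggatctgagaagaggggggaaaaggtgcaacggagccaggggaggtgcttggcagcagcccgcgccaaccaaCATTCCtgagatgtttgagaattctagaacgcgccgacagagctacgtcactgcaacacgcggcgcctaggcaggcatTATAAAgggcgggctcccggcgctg
Spp1: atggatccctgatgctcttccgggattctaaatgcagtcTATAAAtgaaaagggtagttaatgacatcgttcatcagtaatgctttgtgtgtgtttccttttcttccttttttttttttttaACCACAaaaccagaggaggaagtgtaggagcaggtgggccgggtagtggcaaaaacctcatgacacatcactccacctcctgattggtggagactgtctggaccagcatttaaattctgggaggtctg
The Ccn1 window held TATAAA at positions -25 to -20 before the start, and GGAATG on the opposite strand at -103 to -98. The Spp1 window held TATAAA at -211 to -206 and TGTGGT on the opposite strand at -128 to -123. These letters are common, since GGAATG was found in 12.6%, TATAAA in 12.4% and TGTGGT in 14.0% of the 32851 promoter windows of that length, both strands searched. The AP-1 motif TGANTCA (6.75% of windows) and the CArG box of serum response factor (1.47%) were in neither window. Of the 10 genes, 6 had a promoter in the table used, with 9 starts in all. A match is a description of the letters and not of a bound site.

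Postn (ENSMUSG00000027750, chr3:54361109-54391037, plus strand), the gene of periostin, a protein that binds collagen and integrins, was highest in the cells named Pericyte. There it stood at 882 ± 339 CPM (SD, n = 6), against 23.3 ± 5.07 CPM in Fibroblast cells, the next type. The wt/wt samples had 995, 1003 and 1187 CPM in these cells, and the ko/ko samples had 327, 619 and 1160 CPM. Every sample was therefore far above any other type, with a ratio to Fibroblast of 16.4 to 59.1 (mean 38.4). Pericyte cells were 308 of 25428 cells but held 25.6% of all Postn UMIs on average over samples (9.52% to 44.0%), while Fibroblast cells held 49.9% and Fibroblast proliferating cells 17.6%. After each cell was thinned to 4000 UMIs, 79.5% of Pericyte cells had a Postn UMI (88.4% without thinning), against 6.4% of Fibroblast, 3.1% of Myeloid and 1.4% of Endothelial cells. The 271 cells with 3 or more Schwann marker UMIs had 891 CPM of Postn when pooled, and the other 37 had 619 CPM. The median was 15082 UMIs in the 271 cells and 7849 in the 37, and the part of depth in this split was not tested. Among the sub-clusters, Postn was highest in the 214 cells of sub-cluster 7, with 226 ± 119 CPM, where 37.9% of thinned cells had a UMI. Sub-cluster 6 followed with 60.5 ± 49.9 CPM, and the ranges of these sub-clusters overlapped.

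Thbs2 (ENSMUSG00000023885, chr17:14665500-14694235, minus strand), which encodes thrombospondin-2, an inhibitor of angiogenesis that takes part in collagen fibril assembly, was also highest in Pericyte cells. It stood at 195 ± 69.5 CPM there and at 43.3 ± 14.8 CPM in Fibroblast 2 cells, and the mean ratio between them was 4.51 (3.25 to 5.94 over the 6 samples). Fibroblast and Fibroblast proliferating cells were close behind at 33.9 ± 10.9 and 29.4 ± 8.58 CPM, and the ranges of these 3 fibroblast types overlapped. Endothelial and RPE cells were lowest, with 6.69 ± 5.17 and 4.19 ± 2.59 CPM. Among the sub-clusters, 6 (76.1 ± 37.0 CPM) and 4 (72.8 ± 12.4 CPM) were each highest in 3 of the 6 samples.

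Thbs1 (ENSMUSG00000040152, chr2:118111876-118127133, plus strand), the gene of thrombospondin-1, which activates latent TGF-beta and inhibits angiogenesis through CD36 and CD47, had a different order. It was highest in Fibroblast cells, 2726 ± 310 CPM, in 6 of 6 samples, followed by Endothelial cells at 2268 ± 357 CPM with overlapping ranges. Fibroblast 2 cells (543 ± 53.3 CPM) and Fibroblast-like cells (543 ± 150 CPM) shared the lowest place with overlapping ranges, and Fibroblast 2 cells were 5.02 times lower than Fibroblast cells. In the sub-clusters Thbs1 reached 6329 ± 679 CPM in sub-cluster 6 and 3529 ± 962 CPM in sub-cluster 7, against 2802 ± 330 CPM in the large sub-cluster 1. Within single Fibroblast cells, the levels of Thbs1 and Thbs2 were nearly uncorrelated (mean r 0.04 over the 6 samples, 11663 cells thinned to 8000 UMIs). Thbs2 was low in these cells (33.9 ± 10.9 CPM), and counts this low keep r small. The value therefore does not show that the 2 genes vary independently. Part of the Thbs1 3′ end (10.9% of its 31-base words) is shared with Gm29233 on the opposite strand.

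Tnc (ENSMUSG00000028364, chr4:63959785-64047015, minus strand), the gene of tenascin-C, a large hexameric glycoprotein that loosens the adhesion of cells to fibronectin, was highest in Fibroblast (954 ± 150 CPM) and Fibroblast proliferating cells (860 ± 134 CPM), whose ranges overlapped. Fibroblast cells were highest in 5 of 6 samples, and in Dram2 ko/ko replicate 3 both Fibroblast and RPE cells were at 975 CPM. Among the sub-clusters, number 6 stood well above the rest with 3033 ± 699 CPM, 2.98 times sub-cluster 1 (2.41 to 4.48 over the samples). Sub-cluster 6 also held the highest means of Fn1, Thbs1, Ccn1 and Ccn2. Its 477 cells had a median of 21.0% mitochondrial UMIs and 4766 UMIs per cell, against 2.86% and 27032 UMIs in sub-cluster 1, and the part of these differences in the levels was not tested.

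Fn1 (ENSMUSG00000026193, chr1:71585520-71653200, minus strand) encodes fibronectin, the adhesive glycoprotein through which many cells hold on to the matrix by integrin alpha-5 beta-1. It was highest in Endothelial cells in 6 of 6 samples, 2094 ± 516 CPM, which was 2.82 times Fibroblast cells on average (2.28 to 3.33). Fibroblast, Fibroblast proliferating, RPE and Myeloid cells followed with overlapping ranges, at 738 ± 124, 692 ± 98.8, 550 ± 310 and 502 ± 82.1 CPM. Fibroblast 2 cells had the lowest mean, 96.4 ± 33.2 CPM. Its other named types at the low end, Fibroblast-like (181 ± 75.8 CPM) and Pericyte cells (168 ± 113 CPM), overlapped with each other and with Fibroblast 2.

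Sparc (ENSMUSG00000018593, chr11:55394500-55423183, minus strand) encodes osteonectin, a collagen-binding protein needed for collagen assembly, and was counted in nearly all cells (98.2% of cells thinned to 4000 UMIs). Its highest levels were in Pericyte (6732 ± 648 CPM) and Endothelial cells (5901 ± 709 CPM), with Pericyte the higher in 5 of 6 samples. Fibroblast proliferating and Fibroblast cells followed at 3685 ± 193 and 3498 ± 169 CPM, and Fibroblast-like cells were lowest at 1214 ± 254 CPM. Among the sub-clusters, number 7 was highest in 6 of 6 samples, 7795 ± 1577 CPM, against 4323 ± 543 CPM in sub-cluster 6.

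Mgp (ENSMUSG00000030218, chr6:136872435-136875823, minus strand) encodes matrix Gla protein, a vitamin K-dependent inhibitor of calcification that also binds BMPs. It was highest in Fibroblast proliferating cells, 3563 ± 318 CPM, and next in Fibroblast cells, 2931 ± 359 CPM, with that order in 6 of 6 samples (ratio 1.10 to 1.43). Fibroblast 2 cells had 668 ± 241 CPM, and RPE cells 264 ± 157 CPM. In sub-cluster 7 Mgp reached 13469 ± 3342 CPM, between 9386 and 19365 CPM over the samples and 3.77 times sub-cluster 2, the next. Within Fibroblast cells Mgp was uneven, since the decile of cells with the most UMIs of it held 52.5% of its UMIs after thinning to 8000. For Sparc that decile held 22.1%.

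Sub-cluster 7, which was highest for Mgp, Postn and Sparc, held 185 Fibroblast and 16 Fibroblast 2 cells among its 214. It was not highest for every gene, with Fn1 at 256 ± 46.3 CPM against 769 ± 122 CPM in sub-cluster 1, ranges that did not overlap. Its 3 Schwann markers summed to 6.02 CPM and its 6 pericyte markers to 699 CPM, against 636 and 236 CPM in the type named Pericyte. The same pericyte markers summed to 473 CPM in sub-cluster 6 and 447 CPM in sub-cluster 4, against 147 CPM in sub-cluster 1.

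The CCN family members Ccn1 (ENSMUSG00000028195, chr3:145646976-145649981, minus strand) and Ccn2 (ENSMUSG00000019997, chr10:24595442-24598683, plus strand), also known as CYR61 and CTGF, which bind integrins and heparan sulfate and are induced by serum, TGF-beta and mechanical tension, followed each other. Ccn1 was highest in Endothelial cells (1673 ± 487 CPM) and next in Fibroblast cells (1104 ± 155 CPM), and Ccn2 likewise (2857 ± 784 and 2249 ± 277 CPM), both in 6 of 6 samples and with overlapping ranges. Fibroblast-like cells were lowest for both, at 188 ± 66.4 CPM for Ccn1 and 345 ± 94.5 CPM for Ccn2. The fall was steepest in sub-cluster 5, which holds 763 of the 1121 Fibroblast-like cells. There Ccn1 was at 48.1 ± 31.6 CPM, 44.7 times lower than in sub-cluster 6, and Ccn2 at 178 ± 51.1 CPM, 21.5 times lower. Mgp, by contrast, was at 2452 ± 321 CPM in sub-cluster 5, within the range of sub-cluster 1. Sub-cluster 5 cells had a median of 5856 UMIs. Of the other Fibroblast-like cells, 168 were in sub-cluster 6, which was highest for both genes, and 168 in sub-cluster 8. In sub-cluster 8, 91.1% of UMIs in the median cell were mitochondrial, which leaves little for other genes in a CPM value, and 8 of the 10 genes had their lowest mean there.

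Within single cells Ccn1 and Ccn2 were the most correlated pair of members in 3 of the 4 types examined, among pairs with both genes counted in over 10% of cells in 2 or more samples. That left out Postn in Fibroblast 2 and Fibroblast proliferating cells and Thbs2 in RPE cells, and Postn pairs in Fibroblast cells rest on 2 samples. The mean r over samples was 0.45 in Fibroblast (11663 cells), 0.43 in Fibroblast proliferating (5971 cells) and 0.64 in Fibroblast 2 cells (2575 cells). In RPE cells (968 cells of 3 samples) it was 0.37. Pairs above it there were Fn1 with Tnc at 0.59, Thbs1 with Ccn2 at 0.47 and Fn1 with Sparc at 0.47. Sparc with Thbs1 at 0.43, Tnc with Ccn2 at 0.39 and Fn1 with Ccn2 at 0.38 were above it as well. These values are descriptions, since cells of 1 sample share their culture and library.

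Spp1 (ENSMUSG00000029304, chr5:104435118-104441050, plus strand) encodes osteopontin, a phosphorylated integrin- and CD44-binding cytokine of bone, macrophages and injured tissue. It was highest in Fibroblast 2 cells in 6 of 6 samples, at 15388 ± 3484 CPM. The wt/wt samples had 10557, 18237 and 19005 CPM and the ko/ko samples 13761, 12784 and 17982 CPM. Myeloid cells followed at 7255 ± 1906 CPM (n = 4), then Fibroblast proliferating cells at 2255 ± 333 CPM, and neither overlapped with the type above it. Fibroblast 2 cells held 44.7% of all Spp1 UMIs, Fibroblast cells 28.8% and Fibroblast proliferating cells 18.7%. Among the sub-clusters, number 3, which holds 2964 of the 3019 Fibroblast 2 cells and 811 Fibroblast cells, had 12638 ± 2559 CPM, and sub-cluster 4 was next with 3380 ± 499 CPM. Of the Spp1 3′ end, 12.4% of the 31-base words are shared with Gm42793, an overlapping gene on the same strand. Part of the Spp1 count is therefore uncertain, by an amount that was not estimated.

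**Figure D2:**
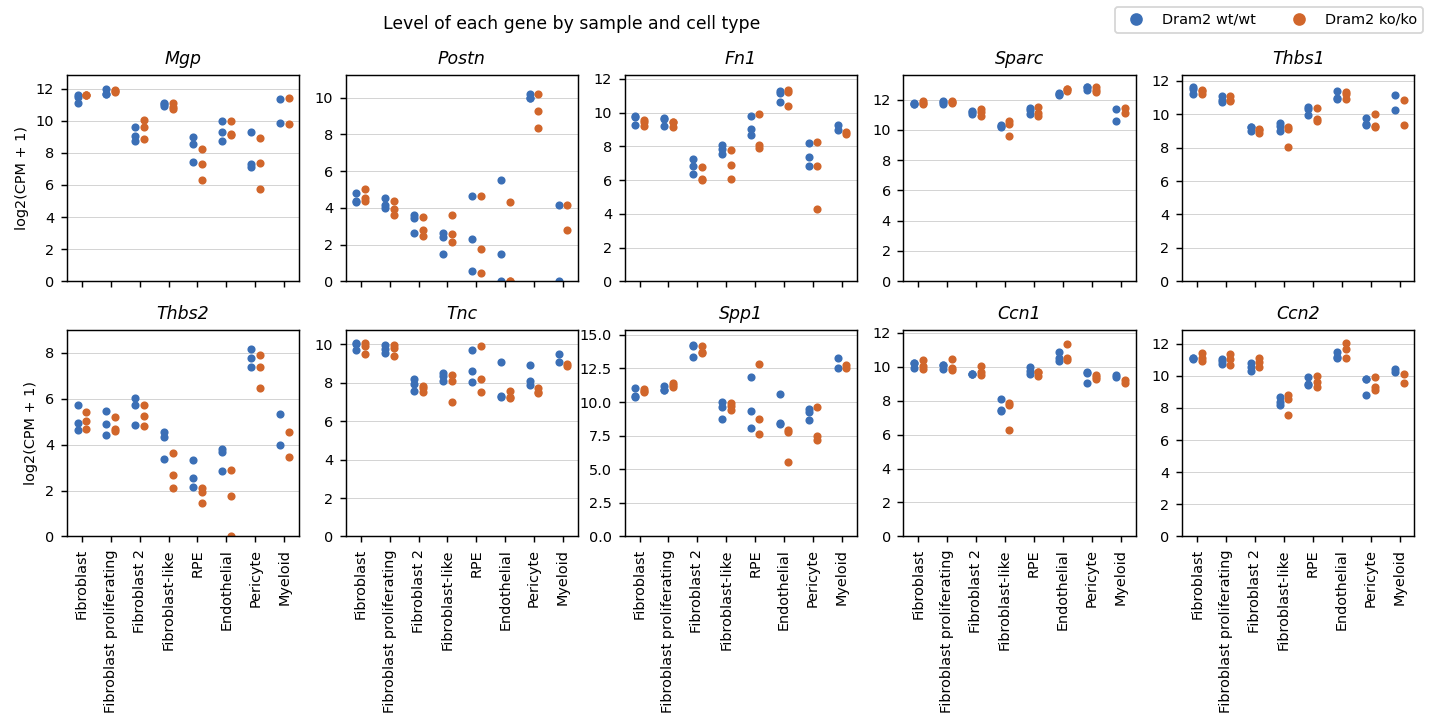
Level of each gene by cell type on a log2(CPM + 1) axis, with 1 point per sample, blue for Dram2 wt/wt (3 samples) and orange for Dram2 ko/ko (3 samples, 2 per genotype in Myeloid). Among the types with a point, Spp1 was highest in Fibroblast 2 cells in every sample. In RPE cells it spread from 199 to 7453 CPM over the samples.

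Spp1 was unevenly distributed within a type. In Fibroblast 2 cells, the decile of cells with the most Spp1 held 52.3% of its UMIs, in Fibroblast cells 67.0% and in RPE cells 64.1%. After thinning to 4000 UMIs, 77.3% of Fibroblast 2 cells had a UMI of it (93.0% without thinning), against 30.05% of Endothelial cells, which is the lowest share of the 8 types. Fibroblast 2 cells were therefore ranked by Spp1 within each sample and divided into quintiles, to ask how the other members ran along that range. The rank used Spp1 alone, and the other genes were scaled to the UMIs outside Spp1.

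From the lowest to the highest quintile, mean Spp1 went from 36.6 to 69484 CPM. Ccn1 went from 1152 to 395 and Ccn2 from 2385 to 649, both lower in the highest quintile in 6 of 6 samples. The lowest quintile had 3.12 times as much Ccn1 as the highest (2.03 to 4.75 over the samples) and 3.86 times as much Ccn2 (2.76 to 5.99). Thbs1, from 699 to 298, and Tnc, from 310 to 128, were also lower in the highest quintile in 6 of 6 samples. Thbs2 ran the other way, from 20.8 to 65.4 CPM, higher in the highest quintile in 6 of 6 samples. Sparc went from 2183 to 2476, higher in the highest quintile in 6 of 6 samples by 1.07 to 1.22 times. Fn1 was mixed, from 104 to 73.1 CPM and lower in the highest quintile in 4 of 6 samples, and Mgp was highest in the middle quintile in the mean. The correlation over the 2575 cells gave the same directions, with mean r of -0.45 between Spp1 and Ccn1, -0.47 between Spp1 and Ccn2 and -0.31 between Spp1 and Thbs1. Postn, which was too low for these correlations, went from 5.88 CPM in the lowest to 1.76 CPM in the highest quintile. Other measures ran along the same range. Dcn, the gene of the small proteoglycan decorin, went from 1097 to 5023 CPM, while the collagen genes Col1a1 and Col1a2 were lower in the highest quintile in 6 of 6 samples, from 196 to 157 and from 91.4 to 43.0 CPM. The potassium channel gene Kcnj8, a pericyte marker, went from 5.51 to 60.8, and the median UMIs per cell from 30832 to 18327. The median mitochondrial percentage was 1.74 in the lowest and 1.78 in the highest quintile. The part of depth and of these genes in the result was not tested.

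**Figure D3:**
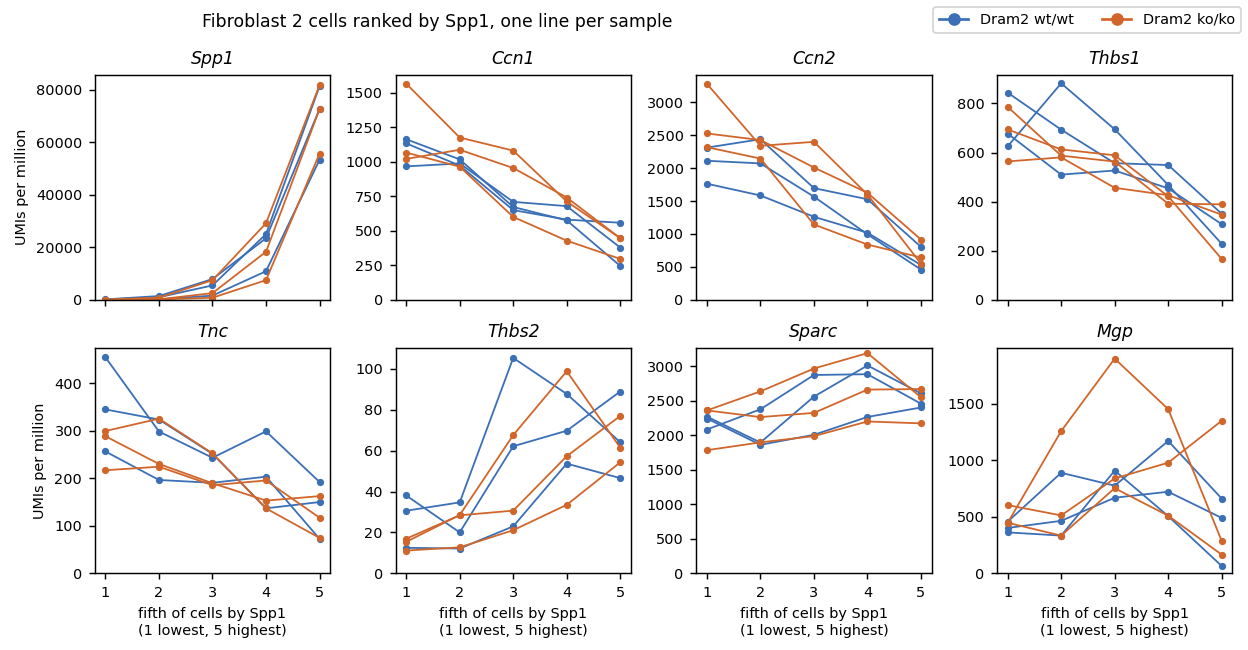
Level of 8 genes in CPM (per 1000000 UMIs outside Spp1, except in the Spp1 panel) in Fibroblast 2 cells ranked by Spp1 within each sample and divided into quintiles, 1 line per sample, blue for Dram2 wt/wt and orange for Dram2 ko/ko. Ccn1, Ccn2, Thbs1 and Tnc were lower in the highest than in the lowest quintile in all 6 samples, and Thbs2 was higher.

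In RPE cells the level of Spp1 varied widely between samples (2124 ± 2939 CPM, n = 6). The wt/wt samples had 269.8, 3739 and 657 CPM and the ko/ko samples 199, 425 and 7453 CPM, a range in which both genotypes had 1 high sample. The number of RPE cells moved with it, at 56, 539 and 152 in wt/wt and 68, 102 and 575 in ko/ko. The same 2 samples with the most RPE cells were also the highest for Fn1 (906 and 949 CPM) and Tnc (840 and 975 CPM) in RPE cells. The highest of them, Dram2 ko/ko replicate 3, is the batch 2 sample, and the other belongs to batch 1. In the 3 samples with enough RPE cells to be ranked by Spp1, the marker Krt18 was lower in the highest than in the lowest quintile in 3 of 3 (mean ratio 2.13, 1.34 to 3.32). The RPE marker Otx2 was lower there in 2 of 3, with a mean ratio of 1.06 (0.445 to 1.37). Of the other members, Fn1, Mgp and Postn were higher there in 3 of 3, Fn1 and Mgp by a mean of 1.93 and 1.57 times. Postn went from a mean of 5.43 CPM (2.55 to 8.75) in the lowest to 52.5 CPM (10.6 to 78.8) in the highest quintile. Ccn1, Ccn2, Thbs1 and Thbs2 were lower there in 2 of 3, and Sparc and Tnc in 1 of 3. Dcn was higher there in 3 of 3 (mean 2.12 times), while the fibroblast markers Col1a2 and Lum were lower in 2 of 3 and Col1a1 in 1 of 3. The median UMIs per cell were lower there in 3 of 3 (mean ratio 1.34). The part of depth and of these genes was not tested.

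Myeloid cells differed by whether they held collagen UMIs. In the 26 without Col1a1 or Col1a2 UMIs, Spp1 was at 18395 CPM when pooled, and Mgp at 276, Sparc at 134 and Ccn2 at 183 CPM. In the other 58, Spp1 was at 5333 CPM, and Mgp at 1557, Sparc at 2626 and Ccn2 at 1253 CPM. All 84 cells had at least 1 UMI of Spp1. All 9 other members were lower in the 26 than in the 58 cells. The 26 cells were chosen for a count of 0 and had a median of 10112 UMIs, against 32202 in the 58, and the part of depth and of RNA from other cells in these levels was not tested.

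For each member, the genes with the most similar pattern over the 46 sums of a sample and a cell type were taken from 5405 genes with 50 CPM or more in some type, by Pearson's r of log2(CPM + 1). Mgp was closest to Igfbp4 (r 0.95), Chn1 (0.91) and Ptgs1 (0.89), and Postn to Zfp469 (0.91), Adamts5 (0.89) and Zdhhc8 (0.86). Fn1 and Thbs1 shared their closest gene, Tgfb2, which encodes a TGF-beta ligand, at r 0.91 and 0.85. For Fn1 it was followed by Ehd4 (0.84) and Crim1 (0.83), and for Thbs1 by Pdlim5 (0.83) and Rras2 (0.83). Sparc was closest to the integrin genes Itgb1 (0.92) and Itga1 (0.92) and to Lims1 (0.92), and Thbs2 to Col6a1 (0.91), Slitrk6 (0.89) and Gpm6b (0.89). Tnc was closest to Zyx (0.87), Inhba (0.85) and Tbx20 (0.85), Spp1 to the chemokine gene Ccl7 (0.88), Dach1 (0.87) and the cytokine gene Il11 (0.85). Ccn1 was closest to App (0.93), Tmem59 (0.93) and Hyal2 (0.92), and Ccn2 to Arid5b (0.91), Mgat2 (0.89) and Csnk1g1 (0.89). The sums of 1 sample share their library and those of 1 type their depth, so these are descriptions.

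The question of the genotype comparison was whether loss of Dram2 altered gene expression in these cells. Sums of UMIs were tested over all genes with voom-limma, in whole samples, in each of the 8 types and in sub-clusters 1 to 8. None of the 10 genes was called at an adjusted p under 0.05 in any of these 17 units (159 tests of members, of which 18 had an unadjusted p under 0.05). The edgeR quasi-likelihood test called 0 of the 159 (16 at an unadjusted p under 0.05) and DESeq2 called 2 (14 unadjusted). At an unadjusted p under 0.05, the members' shares of tests were 11.3% by voom-limma, 10.1% by edgeR and 8.81% by DESeq2, against 6.39%, 5.95% and 4.62% of tests over all genes. The units share cells, so these tests are not independent, and no test compared the shares. Over all genes tested, edgeR called 0% to 0.613% in these units and DESeq2 0% to 1.77%. The 2 DESeq2 calls were in the whole sample and in sub-cluster 7, where it called 1.67% and 0.493% of all genes. Over all genes tested, voom-limma called 0% in the whole sample, 0.00503% in Fibroblast, 0.624% in Fibroblast proliferating, 0.222% in Fibroblast 2, 0% in Fibroblast-like, RPE and Endothelial, 0.0118% in Pericyte and 0.0296% in Myeloid cells. It called 0.32% in sub-cluster 1, 0.55% in sub-cluster 2, 0.00634% in sub-cluster 3, 0.722% in sub-cluster 4, 0.402% in sub-cluster 7 and 0% in sub-clusters 5, 6 and 8. These counts depended on single samples. Without Dram2 ko/ko replicate 1, voom-limma called 242 genes in the whole sample, 234 in Fibroblast, 290 in Fibroblast proliferating and 121 in Fibroblast 2 cells. Without Dram2 ko/ko replicate 3 it called 117, 150, 226 and 52, and without Dram2 ko/ko replicate 2 it called 0 in each of these units. In all of these fits 0 members were called. Sub-cluster 9 had 2 samples against 1 with enough cells and was not tested.

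Over the whole sample the log2 fold changes of ko/ko over wt/wt lay between -0.23 and 0.46 with a median of -0.07, against 0.005 over all genes. They were 0.10 for Mgp, -0.23 for Postn, -0.23 for Fn1, 0.03 for Sparc, -0.16 for Thbs1, -0.12 for Thbs2, -0.13 for Tnc, -0.02 for Ccn1 and 0.08 for Ccn2, each with an adjusted p of 0.920 or more by voom-limma. Spp1 had the largest difference. Its level was 2664, 3285 and 2479 CPM in wt/wt and 3645, 3529 and 4221 CPM in ko/ko, so that all ko/ko samples lay above all wt/wt samples. The log2 fold change of Spp1 was 0.46 with SE 0.12 (voom-limma, adjusted p 0.222), and within batch 1 it was 0.39 with SE 0.13 (adjusted p 0.292). DESeq2 called Spp1, with 0.46 and an adjusted p of 0.031, and edgeR did not, with an adjusted p of 0.370. Of all 22580 genes, DESeq2 called 378 here, 20 higher and 358 lower in ko/ko, where voom-limma and edgeR called 0. Of the 10 genes, 1 (10.0%) did not overlap between genotypes over the whole sample, against 11.5% of all genes tested.

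Over a whole sample, more cells of a type and more RNA per cell cannot be told apart, so Spp1 was divided by the type that held its UMIs. Fibroblast 2 cells gave 1171 ± 134 CPM of the Spp1 of the sample in wt/wt and 1758 ± 346 CPM in ko/ko. RPE cells gave 137 ± 212 and 378 ± 643, Fibroblast proliferating cells 549 ± 95.9 and 675 ± 114, and Fibroblast cells 909.6 ± 172 and 956 ± 67.4. Fibroblast 2 cells were 14.1%, 7.41% and 7.96% of the cells in wt/wt and 17.5%, 15.2% and 10.6% in ko/ko, ranges that overlapped. Within Fibroblast 2 cells the log2 fold change of Spp1 was -0.07 (SE 0.22), and within Fibroblast cells 0.24 (SE 0.16), with adjusted p of 0.967 and 0.915 by voom-limma. Without Fibroblast 2 cells, the remaining Spp1 was between 1468 and 2333 CPM in wt/wt and between 1797 and 3024 in ko/ko, and its log2 fold change was 0.39 with SE 0.22 (adjusted p 0.853), a comparison added after the values were seen.

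**Figure D4:**
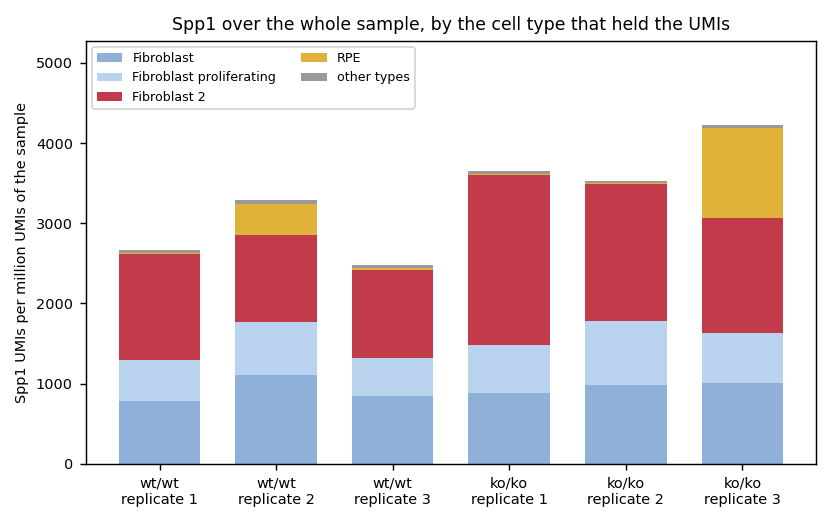
Spp1 in CPM of each sample, stacked by the cell type that held them, for 3 Dram2 wt/wt and 3 Dram2 ko/ko samples. The Fibroblast 2 part ranged from 1092 to 1326 in wt/wt and from 1438 to 2126 in ko/ko, and the RPE part was large in 1 sample of each genotype.

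Within cell types with 3 samples against 3, 4 of 67 member values (5.97%) did not overlap between genotypes, against 10.5% of all genes and types tested, and in the sub-clusters it was 4 of 68 (5.88%) against 11.3%. The members' shares were thus no higher than the background. In Myeloid cells, with 2 samples against 2, 4 of 9 members did not overlap, against a background of 33.7%, and in sub-cluster 8, also 2 against 2, 1 of 5 against 20.9%.

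**Figure D5:**
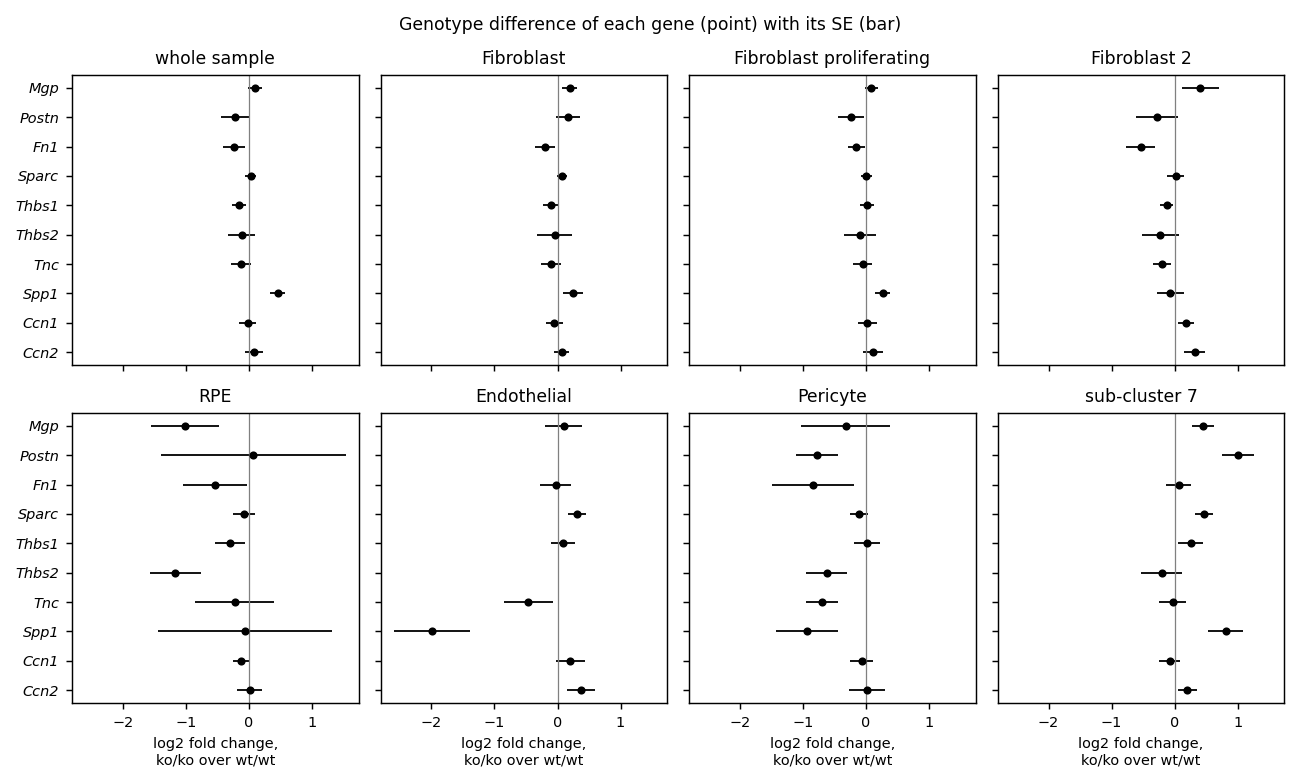
Log2 fold change of ko/ko over wt/wt for each member (point) with its SE (bar), from voom-limma over all genes, in the whole sample and in 7 cell types or sub-clusters; a member without a point had too few counts to be tested there. None of these members had an adjusted p under 0.05, and the bars for Postn and Spp1 were widest in RPE cells.

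In Endothelial cells, Sparc was at 5250, 5152 and 5555 CPM in wt/wt and at 6831, 5987 and 6632 CPM in ko/ko, a log2 difference of 0.31 with SE 0.15 (adjusted p 0.942). Spp1 was at 331, 1548 and 345 CPM in wt/wt and at 45.6, 247 and 214 CPM in ko/ko there, a log2 difference of -1.99 with SE 0.61 (voom-limma, adjusted p 0.724, and -2.29 within batch 1). The sample at 1548 CPM was Dram2 wt/wt replicate 2, and without it the difference was -1.26. Without Dram2 ko/ko replicate 1, the sample at 45.6 CPM, it was -1.24. The 5 fibroblast markers summed to 235 to 908 CPM in the wt/wt and 137 to 339 CPM in the ko/ko Endothelial cells, and their part in the Spp1 value was not tested. In Pericyte cells, Tnc was at 231, 477 and 271 CPM in wt/wt and at 179, 208 and 178 CPM in ko/ko, with a log2 difference of -0.70 with SE 0.25 (adjusted p 0.679), which was -0.38 without Dram2 wt/wt replicate 2, the sample at 477 CPM. In RPE cells, Thbs2 also did not overlap, but at a mean of 4.19 CPM. In Myeloid cells the log2 fold changes of the 4 members that did not overlap were -0.31 for Fn1, -0.35 for Tnc, -0.29 for Ccn1 and -0.50 for Ccn2, with adjusted p of 0.839 or more. With 1 sample left out these ranged from -0.43 to -0.17, from -0.52 to -0.15, from -0.36 to -0.20 and from -0.75 to -0.22. The values nearest 0 came without Dram2 wt/wt replicate 2 for Fn1 and Tnc, without Dram2 wt/wt replicate 3 for Ccn1 and without Dram2 ko/ko replicate 3 for Ccn2. Mitochondrial genes summed to 29807 to 34493 CPM in the wt/wt and 24806 to 24833 CPM in the ko/ko Myeloid cells, ranges that did not overlap, and their part in these values was not tested.

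In sub-cluster 7, Postn was at 114, 147 and 187 CPM in wt/wt and at 234, 223 and 450 CPM in ko/ko, so the groups did not overlap. The log2 fold change of Postn was 1.01 with SE 0.25 (voom-limma, adjusted p 0.130), and within batch 1 it was 0.72 with SE 0.21 (adjusted p 0.240). DESeq2 called it, at 1.05 with an adjusted p of 0.033, and so did voom-limma without Dram2 ko/ko replicate 2 (1.20, adjusted p 0.031, with 0.595% of all genes called). Sparc was at 6530, 7366 and 5934 CPM in wt/wt and at 9490, 7589 and 9863 CPM in ko/ko in these cells, a log2 difference of 0.47 with SE 0.15 (adjusted p 0.282). The sub-cluster held 53, 13 and 21 cells in wt/wt and 26, 79 and 22 in ko/ko. Its Schwann markers, which mark the type with the highest Postn, summed to 3.78 to 5.77 CPM in wt/wt and 5.81 to 8.68 CPM in ko/ko, ranges that did not overlap. Endothelial markers, at 4.22 to 7.55 CPM in wt/wt and 0 to 1.66 CPM in ko/ko, and photoreceptor markers, at 0.844 to 3.78 and 0 to 0.831 CPM, did not overlap either, and ran the other way. At most 1 of the 3 photoreceptor markers had a UMI in any of these samples, and marker sums this low rest on few UMIs. Over sub-clusters with 3 samples against 3, 11.3% of all genes tested did not overlap. The part of the Schwann, endothelial and photoreceptor markers in the Postn difference was not tested.

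In sub-cluster 5, Fn1 was at 158, 183 and 158 CPM in wt/wt and at 67.0, 87.9 and 141 CPM in ko/ko, with a log2 difference of -0.92 with SE 0.23 (voom-limma, adjusted p 0.226). Within batch 1 it was -1.22 with an adjusted p of 0.031, since the ko/ko sample of batch 2 was the one nearest to wt/wt, and 0.0924% of all genes were called. Without Dram2 ko/ko replicate 1 it was -0.58. Thbs1 in the same cells was at 354, 478 and 368 CPM in wt/wt and at 222, 306 and 272 CPM in ko/ko, a log2 difference of -0.64 with SE 0.16 (adjusted p 0.226). The 4 myeloid markers summed to at least 7.64 CPM in wt/wt and at most 6.91 CPM in ko/ko there, and their part in these differences was not tested. In sub-cluster 8, Ccn2 had a log2 difference of -0.73 with SE 0.50 (adjusted p 0.992) from 2 samples against 2 and 103 UMIs in all, which was -0.35 without Dram2 ko/ko replicate 3. The 5 fibroblast markers (130 to 211 CPM in wt/wt, 114 to 117 in ko/ko) and the myeloid markers (13.0 to 35.1 and 0 to 3.07) were also lower in ko/ko without overlap there. The 3 proliferation markers ran the other way, at 0 in both wt/wt samples and at up to 27.6 CPM in ko/ko, without overlap. Sub-cluster 8 held 0.0506% and 0.0626% of the UMIs of the 2 wt/wt samples used. At most 1 of the 4 myeloid markers had a UMI in any sample, so these marker sums rest on few UMIs. The part of the markers in the Ccn2 difference was not tested.

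An interaction term in voom-limma asked whether genotype acted differently in Fibroblast cells than in each of 4 other types. None of the 10 members was called for Fibroblast 2 (3 at an unadjusted p under 0.05), Fibroblast proliferating (2), RPE (2) or Endothelial cells (1). Over all genes these tests called 0%, 0.0101%, 0% and 0%, and 5.13%, 3.72%, 1.86% and 6.00% of genes had an unadjusted p under 0.05. For Ccn2, the interaction with Fibroblast 2 was 0.26 on the log2 scale with SE 0.08 (adjusted p 0.933), rising to 0.40 with an adjusted p of 0.0036 when Dram2 wt/wt replicate 1 was left out (0.244% of all genes called). For Postn, the interaction with Fibroblast proliferating was -0.38 with SE 0.16 (adjusted p 0.9996), moving to -0.70 with an adjusted p of 0.013 when Dram2 ko/ko replicate 2 was left out (0.0298% of all genes called).

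Genes that work beside these proteins were counted as lists. Of 25 other matricellular genes, 21 were tested over the whole sample and 0 were called by voom-limma, with a median log2 fold change of -0.04 (-0.43 to 0.37). Lgals1, which encodes galectin-1, was at 7592 CPM over the whole sample. Of 16 receptors, which include integrin subunits, Cd44, Cd47 and syndecans, 0 were called (median -0.05). The same held for 8 genes of protein modification and matrix assembly (median 0.00), for 15 transcription factor and TGF-beta ligand genes (median -0.05) and for 8 other YAP target genes (median -0.04). At an unadjusted p under 0.05, voom-limma found 1 of the other matricellular genes and 0 of each of the other lists over the whole sample, where 7.01% of all genes passed that threshold. edgeR found 0 in each list, DESeq2 found 1 receptor, and both called 0 genes of these lists.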

How the data were processed

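The data are single-cell RNA counts of cultured mouse RPE and choroid, in 3 samples per Dram2 genotype, made with the 10x 3′ chemistry. The authors deposited 1 table of raw UMI counts per gene and cell, made with Cell Ranger 3.1.0 on GRCm38 per the submitters' processing notes, with exons only. Per the study, cell types were Louvain clusters of log-normalised counts integrated over batches in Seurat. Types, sub-clusters and samples were taken from the deposited cell table.

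All 25428 cells entered. No doublet caller was run, and in an alternative the 1273 cells in the top 5% of UMIs per sample were removed. Another removed 469 cells (1.84%) that had fewer than 500 genes or more than 20% of mitochondrial UMIs. Counts were summed per sample and type where 10 or more cells were present, which left 4 samples for Myeloid and sub-cluster 8. Sums were filtered with filterByExpr, scaled by TMM (edgeR 4.0.16) and tested with voom-limma (limma 3.58.1, R 4.3.3), with Benjamini-Hochberg adjustment over all genes tested. The labels give replicate numbers and state no pairing, so the main fits did not treat the numbers as pairs. A check of whether same-numbered samples deviated together could not decide this, and the replicate block is given as an alternative. For shares of cells and correlations, cells were thinned to 4000 or 8000 UMIs, leaving out 552 or 3401 shallower cells, with Python 3.11.15 and numpy 2.4.6. Shared 3′ sequence is the percentage of 31-base words in the last 400 bases of a gene's transcripts found in other genes. The code was tested on simulated data.

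Every one of the 10 members is named. Within a type or sub-cluster, a fold change is given for members at 10 CPM or more whose genotypes did not overlap. It is also given for Spp1 in the fibroblast types that held most of it. Calls made only under an alternative have a fold change too, except those made without the filter on low counts. For calls without that filter the members are named, and no fold change from that fit is given. The members and lists were chosen with earlier results of these data known, and 1 gene of the Schwann marker list is not reported here and was left out of its sums. Alternatives were edgeR's quasi-likelihood test, DESeq2 1.42.0, other scaling, no filter on low counts, the replicate block, batch as a covariate, other cell filters, leaving out each sample, other depths of thinning and, added after the values were seen, whole samples without Fibroblast 2 cells. Counting error is not covered by the SD over samples.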

Additional observations from a re-analysis of the deposited data

How the results depend on the processing

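The cell type with the highest level was the same for all 10 members when levels were means over cells, after the cell filter, without the cells with the most UMIs, and with a minimum of 30 cells. The level of Spp1 in Fibroblast 2 cells was 20074 CPM as a mean over cells, against 15388 CPM from sums. Of 282 alternatives for the number of members called, 271 gave a similar number, and of 328 for fold changes, 309 kept direction and call, 7 gained a call and 12 reversed. Of 20 alternatives for shares of cells with a UMI, made without thinning or with thinning to 8000 UMIs, 14 moved by more than the SD over samples.

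The number of members called rose from 0 to 1 with DESeq2 in the whole sample (Spp1) and in sub-cluster 7 (Postn). Without the filter on low counts it was 1 in Myeloid cells (Thbs1, with 0.328% of all genes called) and 4 in sub-cluster 7 (Sparc, Postn, Spp1 and Mgp, with 0.425%), and with batch as a covariate it was 1 in sub-cluster 5 (Fn1, with 0.129%). Leaving out 1 sample gave 0 to 1 members called in Myeloid cells, in sub-clusters 5 and 7, and in the interactions with Fibroblast 2 and with Fibroblast proliferating. The Myeloid call was Thbs1 without Dram2 wt/wt replicate 3 (-1.07, adjusted p 0.015, 1.04% of all genes called) or without Dram2 ko/ko replicate 2 (-1.35, adjusted p 0.0031, 0.241%), where the lone sample of a genotype is assumed to vary like the others. In sub-cluster 5 it was Fn1 without Dram2 ko/ko replicate 3, and in sub-cluster 7 Postn without Dram2 ko/ko replicate 2.

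Over the whole sample, batch as a covariate turned Sparc to -0.0082 and Ccn1 to 0.039. With 1 sample left out, the log2 fold change ranged from -0.39 to 0.041 for Postn, from -0.0094 to 0.071 for Sparc, from -0.32 to 0.12 for Thbs2, from -0.26 to 0.020 for Tnc, from -0.18 to 0.049 for Ccn1 and from -0.066 to 0.24 for Ccn2. Mgp, Fn1 and Thbs1 kept their direction, from 0.00025 to 0.19, from -0.41 to -0.13 and from -0.27 to -0.078. The cause of these changes was not tested. Spp1 stayed between 0.37 and 0.56.

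With the replicate block, 0 members were called in every unit fitted. Over all genes the block moved the calls from 113 to 0 in Fibroblast proliferating, from 33 to 2 in Fibroblast 2, from 61 to 2 in sub-cluster 1, from 99 to 0 in sub-cluster 2, from 99 to 53 in sub-cluster 4, from 31 to 9 in sub-cluster 7 and from 2 to 32 in Myeloid cells. Deviations of same-numbered samples over the whole sample correlated at 0.099, -0.43 and 0.028. Deviations from a mean of 3 samples depend on each other, so this check cannot show whether same-numbered samples shared a preparation.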
